A study of Rattus norvegicus with 24 samples.

Results

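The 9 genes described here make and use glutathione in rat liver: Gclc, Gclm and Gss of its synthesis, Gsr of its reduction, the alpha class glutathione transferases Gsta1, Gsta3 and Gsta4, and the mu class transferases Gstm1 and Gstm2. They were chosen by symbol, and each is represented by the array probe set that the array's annotation pairs with that symbol alone, the one with the highest mean log2 intensity where there were several. This gave 9 of the 17245 genes measured. Liver RNA came from 24 male Wistar rats, 1 Affymetrix whole-transcript array per rat. The groups were a diet with 5% protein for 4 weeks, 20% protein for 4 weeks, 5% protein for 1 week and 20% protein for 1 week, with 6 rats in each, and the 20% diet is the normal one per the design text. The titles give these percentages and times, whereas codes in the sample descriptions hold 4 and 18, and the design text names 4 weeks only. The labels used here give no age, so age and time on the diet cannot be told apart in comparisons of 4 weeks with 1 week.

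Glutathione is a tripeptide of glutamate, cysteine and glycine and the main thiol of liver cells. Glutamate-cysteine ligase, built of the catalytic subunit Gclc and the modifier subunit Gclm, carries out the rate-limiting step of its synthesis, and cysteine, which comes from dietary protein, is often the limiting amino acid. Gss adds glycine, and Gsr returns oxidised glutathione to its reduced form with NADPH. Glutathione transferases join glutathione to reactive compounds, and many of their genes are known targets of the factor NRF2, which binds antioxidant response elements.

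The alpha transferases Gsta1 and Gsta3 are close copies that lie next to each other on chromosome 9 in RefSeq, and Gstm2 and Gstm1 lie next to each other on chromosome 2. Array symbols and older names of these genes cross: RefSeq gives Gsta5 and Yc2 as other names of Gsta3, and gives Gsta3 and Yc1 among the other names of Gsta1. Promoter windows of RefSeq (build GRCr8, 250 bases before to 50 after a start site) were found for 8 of the 9 members. The core letters of the antioxidant response element, TGACNNNGC, were searched on both strands and stood in 3 of the 9 windows of members, 1 each for Gsta3, Gsta1 and Gclm. Of all 33469 windows in the table, 12.1% hold them. They are shown because 2 of them belong to neighbouring alpha transferases with very different diet effects. Capitals mark the motif, which stands on the minus strand in Gclm, so that its reverse complement is printed there.
Gsta3, chr9:31154739-31155038, plus strand: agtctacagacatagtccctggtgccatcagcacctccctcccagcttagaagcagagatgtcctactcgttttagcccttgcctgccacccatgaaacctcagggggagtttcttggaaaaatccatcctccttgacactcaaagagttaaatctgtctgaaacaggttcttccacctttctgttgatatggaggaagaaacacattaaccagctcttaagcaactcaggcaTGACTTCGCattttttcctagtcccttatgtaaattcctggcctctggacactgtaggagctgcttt
Gsta1, chr9:31216483-31216782, minus strand: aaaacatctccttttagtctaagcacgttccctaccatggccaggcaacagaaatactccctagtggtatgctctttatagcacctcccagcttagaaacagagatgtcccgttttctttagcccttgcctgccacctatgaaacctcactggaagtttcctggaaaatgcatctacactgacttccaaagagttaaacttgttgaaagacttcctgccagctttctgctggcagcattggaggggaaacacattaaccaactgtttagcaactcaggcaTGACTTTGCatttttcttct
Gclm, chr2:213031885-213032184, plus strand: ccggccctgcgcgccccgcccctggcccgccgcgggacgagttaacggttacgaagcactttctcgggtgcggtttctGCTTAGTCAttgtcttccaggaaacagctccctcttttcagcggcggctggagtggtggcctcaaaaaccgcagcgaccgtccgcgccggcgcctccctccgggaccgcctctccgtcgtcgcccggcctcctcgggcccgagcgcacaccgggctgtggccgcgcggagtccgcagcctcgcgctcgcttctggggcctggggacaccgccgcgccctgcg
Counted from the start site as position 0, the match begins at position -17 in Gsta3, 30 in Gsta1 and -172 in Gclm. The windows of Gsta3 and Gsta1 shown were identical at 200 of 263 aligned columns (76.05%), against 46.8% to 53.2% for the other pairs of transferase windows. These include a second window of Gsta3 (chr9:31166793-31167092), which holds no match and was 47.2% identical to that of Gsta1. A match is only a run of letters, and binding was not measured.

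The values are log2 of the authors' RMA intensity, which can be compared between rats for 1 gene but not between genes. Differences are 5% minus 20% protein with their standard errors, fitted over all genes with limma, and a gene is said to have risen or fallen where the adjusted p was below 0.05. Arrays of a group correlated at 0.984 to 0.995 over all genes. Animal numbers in the titles fall into 4 runs. Runs 1 (22 to 32) and 3 (59 to 73) were fed for 4 weeks, runs 2 (49 to 54) and 4 (74 to 79) for 1 week. No run holds rats of both times, so run and time cannot be told apart in comparisons of 4 weeks with 1 week. Each diet has 3 rats in each run at 1 week, but at 4 weeks run 1 holds 5 rats on 5% and 2 on 20%, and run 3 holds 1 rat on 5% (animal 59) and 4 on 20%. Values for run 3 therefore rest on 1 rat for the 5% diet, which is assumed in the tests to vary like the other rats. At 1 week each row of the array plate holds a single diet, so row and diet cannot be told apart there. In whole liver, fewer cells of a type and less RNA per cell cannot be told apart. Of 5 hepatocyte markers measured, 0 passed the test at 1 week, and Ttr, Serpina1 and Fgb fell at 4 weeks, by 0.21, 0.17 and 0.39 on the log2 scale. Of all genes, 4.3% were called at 1 week and 25.8% at 4 weeks.

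At 4 weeks transferases of the alpha class differed between the diets in both directions. Gsta3 was 24.0-fold higher and Gsta1 1.35-fold higher on 5% than on 20% protein, while Gstm2 was 5.69-fold lower and Gsta4, also an alpha transferase, 1.79-fold lower. Of the synthesis and reduction genes, Gss was 1.83-fold and Gsr 1.36-fold higher, and the 2 subunits of glutamate-cysteine ligase did not pass the test. In all, 4 of the 9 members rose and 2 fell, against 25.8% of all genes called in this comparison. The 5% and 20% rats did not overlap for 4 of the 9 members, against 12.4% of all genes. The median difference of the 9 members was 0.38, and that of all genes was -0.01.

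**Figure D1:**
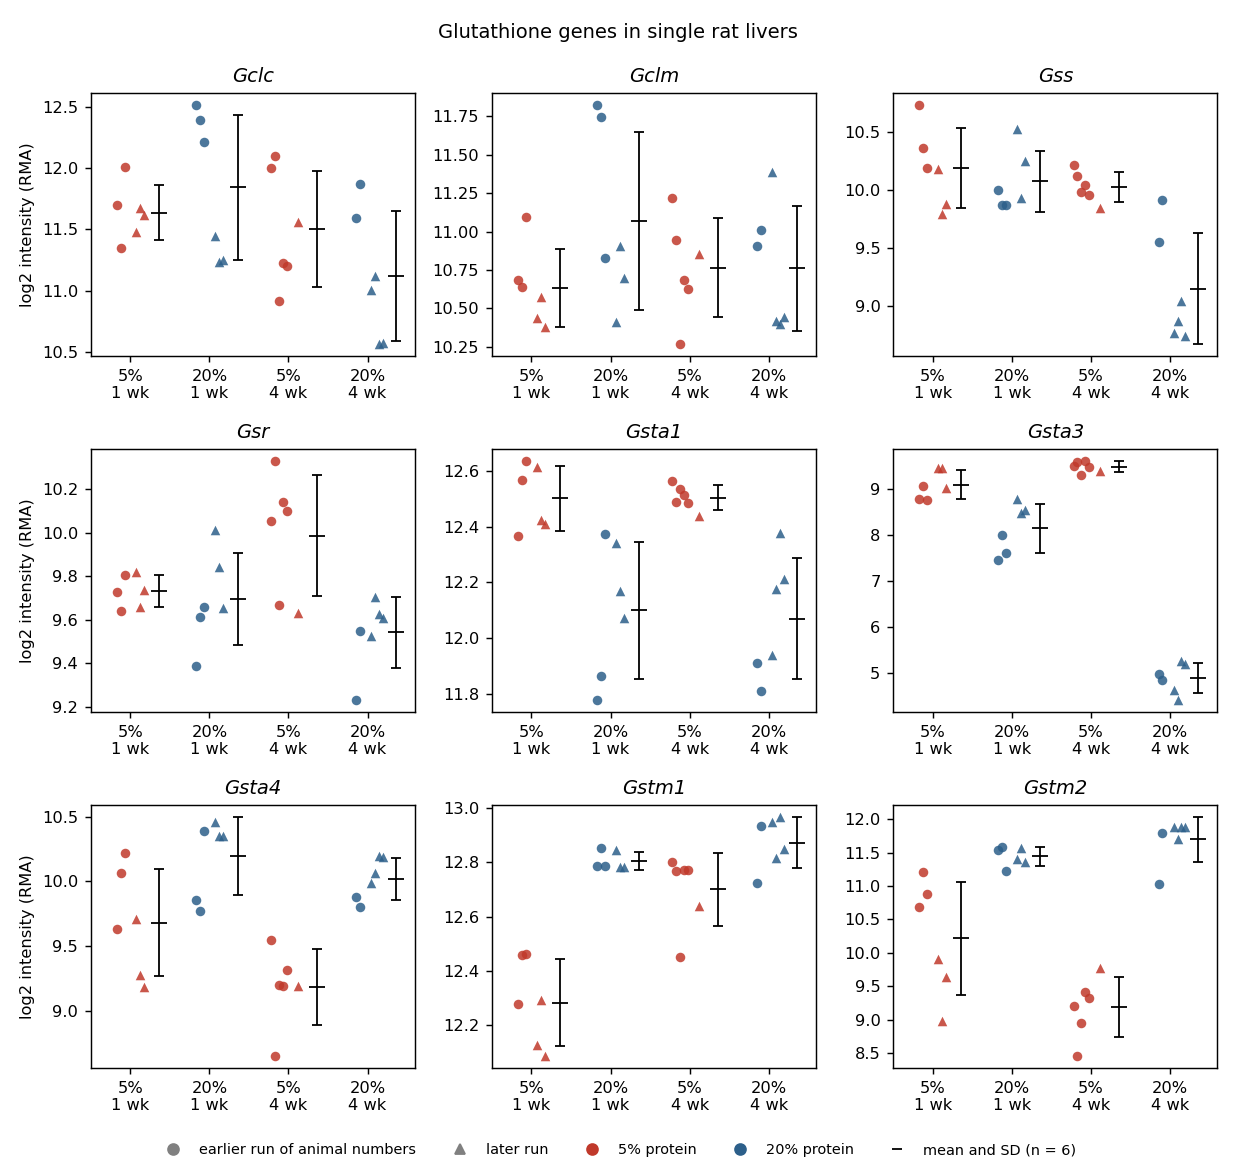
Log2 intensity (y axis) of each of the 9 genes in each rat, 1 panel per gene, by diet and weeks on the diet (x axis); points are rats, 6 per group, round for the earlier and triangular for the later run of animal numbers at that time, and bars are the mean and SD. The 6 rats on 20% protein for 4 weeks lie between 4.41 and 5.25 for Gsta3, far below the other 3 groups, and the 5% rats lie below the 20% rats at both times for Gstm2.

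Gsta3 is the transferase subunit that in rats is known for conjugating the epoxide of aflatoxin. At 4 weeks its log2 intensity had a lowest value of 9.30, a median of 9.49 and a highest of 9.60 in 5% livers, and 4.41, 4.91 and 5.25 in 20% livers. The lowest 5% rat thus stood more than 4 log2 units above the highest 20% rat. The difference was 4.59 ± 0.19 (adjusted p = 1.76e-14), number 14 by size among all genes. On the unlogged scale the 5% rats had intensities of 628 to 777 and the 20% rats of 21.3 to 38.2, below the lowest array median of 42.4. RMA values carry no detection call, so the true fold against so low a level is not bounded, and with an offset of 16 added before the log the difference was 3.99. Within the runs it was 4.58 in run 1 and, with 1 rat on 5%, 4.52 in run 3.

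Gsta1, the neighbour of Gsta3, is among the abundant alpha transferases of rat liver. Its lowest, median and highest log2 intensities were 12.44, 12.50 and 12.56 in 5% livers at 4 weeks and 11.81, 12.06 and 12.38 in 20% livers. The groups did not overlap, and the 5% rats lay close together. The difference was 0.43 ± 0.10 (adjusted p = 0.00208), with 0.66 in run 1 (adjusted p = 0.00202). In run 3, with 1 rat on 5%, it was 0.26 (adjusted p = 0.415). Sequence shared by close copies can carry signal from one probe set to another. Whether part of the Gsta1 difference comes from Gsta3 RNA was not tested.

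Gsta4, the alpha transferase known for conjugating 4-hydroxynonenal, a product of lipid peroxidation, went the other way. Its lowest, median and highest log2 intensities were 8.65, 9.20 and 9.55 in 5% livers at 4 weeks and 9.80, 10.03 and 10.20 in 20% livers, again without overlap. The difference was -0.84 ± 0.17 (adjusted p = 4.62e-04), and within run 1 it fell by 0.66 (adjusted p = 0.0267). In run 3, with 1 rat on 5%, the difference was -0.92. The other 2 probe sets of Gsta4 differed by -0.84 and -0.72. The alpha class symbols Gsta2 and Gsta5 share 2 probe sets that pair with both, and Gsta5 is the neighbour of Gsta4 in RefSeq. These probe sets are no members, but fell by 1.39 ± 0.23 and 1.49 ± 0.22 (adjusted p = 7.67e-05 and 2.00e-05 over all probe sets). The alpha class therefore held both called rises and called falls, with differences from -0.84 to 4.59 among the 3 members.

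Gstm2 is a mu class transferase, an enzyme of the conjugation of epoxides and quinones. At 4 weeks its lowest, median and highest log2 intensities were 8.45, 9.26 and 9.78 in 5% livers and 11.03, 11.84 and 11.89 in 20% livers. No 5% rat reached the lowest 20% rat. Gstm2 fell by 2.51 ± 0.27 (adjusted p = 3.03e-07) and by 2.35 within run 1. The single 5% rat of run 3 gave a difference of -2.06. Gstm1, its neighbour and one of the most abundant transferases of liver, had 12.45, 12.77 and 12.80 in 5% livers and 12.72, 12.89 and 12.97 in 20% livers, with overlap. Its difference of -0.17 ± 0.07 did not pass the test (adjusted p = 0.0894; 95% interval -0.32 to -0.02).

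**Figure D2:**
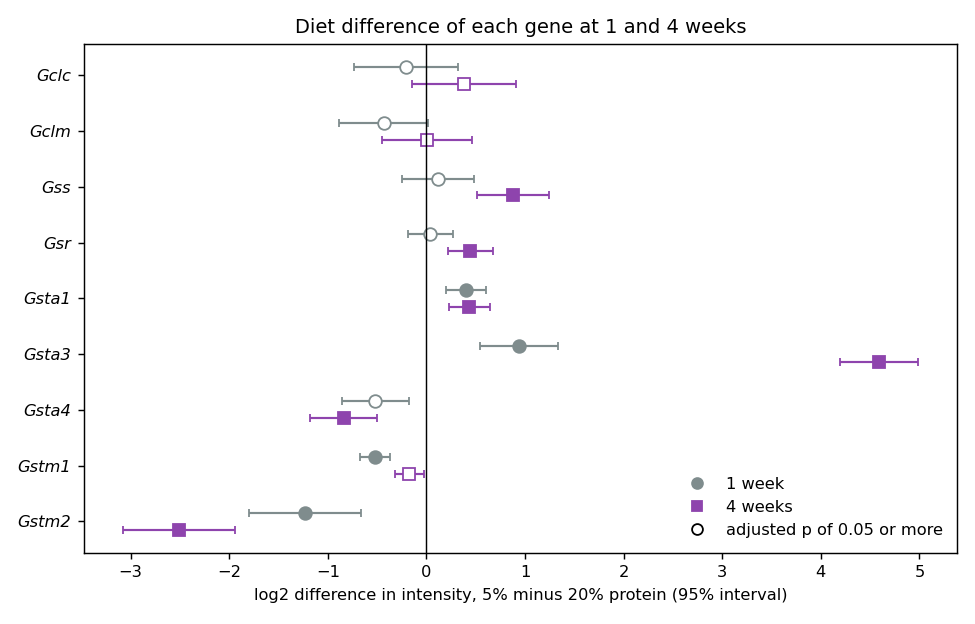
Fitted log2 difference between 5% and 20% protein (x axis, with its 95% interval) for each of the 9 genes at 1 week and at 4 weeks, from 6 rats per group; open symbols have an adjusted p of 0.05 or more. Gsta3 stands at 0.94 at 1 week and 4.59 at 4 weeks, and Gstm2 at -1.23 and -2.51.

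Gss, the enzyme of the last step of synthesis, had lowest, median and highest log2 intensities of 9.85, 10.01 and 10.21 in 5% livers at 4 weeks, and 8.75, 8.96 and 9.91 in 20% livers. A single 20% rat, in run 1, lay within the range of the 5% rats. Gss rose by 0.87 ± 0.18 (adjusted p = 5.90e-04). The 20% rats themselves differed by run, run 3 lying 0.87 below run 1 (adjusted p = 0.00996), with 1 of 9 members called in that contrast against 1.8% of all genes. Within run 3, with its single 5% rat, the diet difference was 0.99 (adjusted p = 0.00352). Within run 1 it was 0.33 (adjusted p = 0.165), and with run as a covariate it was 0.57 (adjusted p = 0.0187).

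Gsr had 9.63, 10.08 and 10.33 in 5% livers at 4 weeks, and 9.23, 9.58 and 9.71 in 20% livers, so that the groups overlapped at their ends. It rose by 0.44 ± 0.11 (adjusted p = 0.00388). The difference was 0.67 in run 1 (adjusted p = 0.00202) and, with 1 rat on 5%, 0.02 in run 3 (adjusted p = 0.976). Whether the diet difference of Gsr or of Gss differs between runs 1 and 3 was not tested.

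Gclc, the catalytic subunit, had the widest spread of the 9 genes in 20% livers at 4 weeks (SD 0.53, n = 6). Its lowest, median and highest log2 intensities were 10.92, 11.39 and 12.10 in 5% livers at 4 weeks and 10.56, 11.06 and 11.87 in 20% livers. The difference was 0.38 ± 0.26 (adjusted p = 0.311), and its 95% interval of -0.15 to 0.91 leaves room for a change in either direction. Gclm had 10.27, 10.77 and 11.22 in 5% livers and 10.40, 10.68 and 11.39 in 20% livers, with a difference of 0.00 ± 0.22 (adjusted p = 0.991; 95% interval -0.45 to 0.46). Both subunits overlapped between the diets over most of their range.

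Markers of some cell types also differed between the diets. Their counts stand against 25.8% of all genes called at 4 weeks and 4.3% at 1 week. Of 7 pericentral hepatocyte markers, 4 fell at 4 weeks and 2 at 1 week. Sums here are the log2 of the summed unlogged intensities of a list, so the brightest markers weigh most. For the pericentral list they were 12.89 to 13.69 in 5% livers and 13.82 to 14.21 in 20% livers at 4 weeks. At 1 week they were 13.51 to 13.78 in 5% livers and 13.96 to 14.12 in 20% livers. Of 8 periportal markers, 5 fell and 1 rose at 4 weeks, with sums of 13.57 to 14.51 in 5% livers and 14.49 to 14.99 in 20% livers. At 1 week 2 fell and 1 rose. Of 8 Kupffer cell markers, 7 fell at 4 weeks, with sums of 11.53 to 11.87 in 5% livers and 12.13 to 12.86 in 20% livers, and 0 passed the test at 1 week. Of 5 erythroid markers, 2 fell at 4 weeks and 3 at 1 week, and of 6 markers of dividing cells, 1 fell at 4 weeks and 2 at 1 week. Of 5 cholangiocyte markers, Epcam and Sox9 rose at 4 weeks, by 1.55 and 0.66, while Krt19 (-0.52), Krt7 (-0.02) and Cftr (0.35) did not pass the test. Sums over the cholangiocyte list were 8.20 to 9.46 in 5% livers and 7.96 to 8.50 in 20% livers, with overlap. Of 5 endothelial markers 2 fell at 4 weeks, and of 6 stellate cell markers 2 fell. These 3 lists had 0 calls at 1 week, and 5 lymphocyte markers had 0 at both times. The part of these in the transferase differences was not tested.

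**Figure D3:**
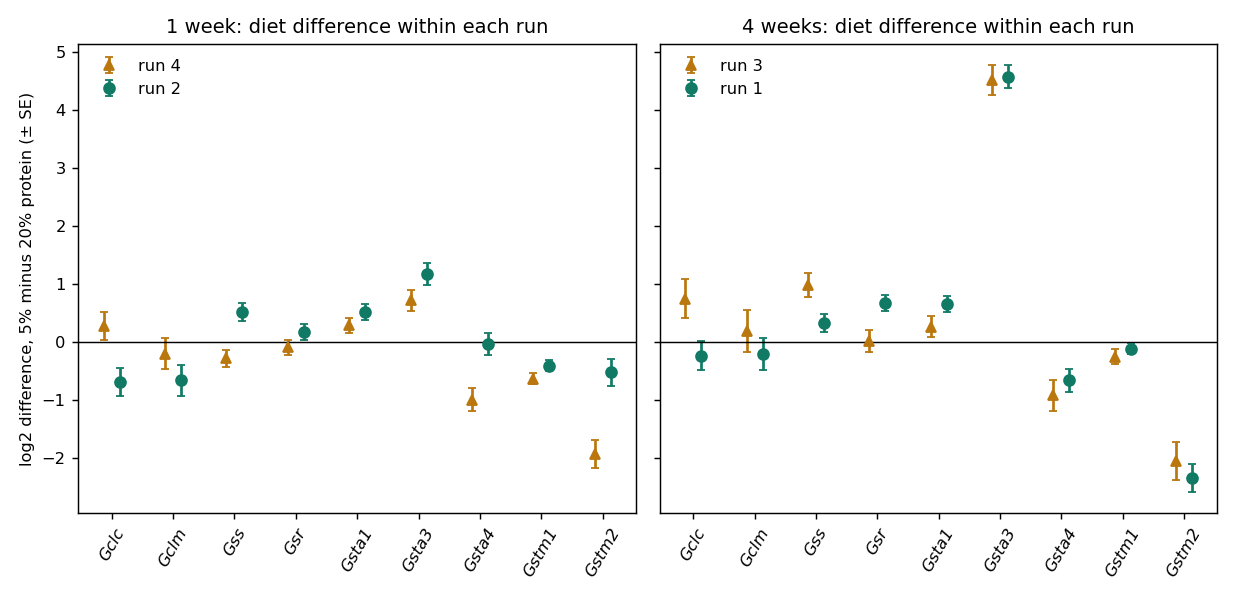
Log2 difference between 5% and 20% protein (y axis, ± SE) of each gene within each run of animal numbers, runs 4 and 2 at 1 week (left) and runs 3 and 1 at 4 weeks (right). Run 3 has 1 rat on 5%. At 4 weeks Gsta3 stands at 4.52 in run 3 and 4.58 in run 1, while Gstm2 stands at -1.93 in run 4 and -0.52 in run 2 at 1 week.

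After 1 week Gsta3 was already 1.92-fold and Gsta1 1.32-fold higher on 5% protein, and Gstm2 was 2.35-fold and Gstm1 1.44-fold lower. In all, 2 members rose and 2 fell of 9, against 4.3% of all genes called at 1 week. The 2 mu transferases were the members whose groups did not overlap, against 2.56% of all genes. The median difference of the 9 members was -0.21, and that of all genes was -0.01.

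Gsta3 had lowest, median and highest log2 intensities of 8.75, 9.03 and 9.46 in 5% livers at 1 week, and 7.46, 8.23 and 8.77 in 20% livers. The highest 20% rat lay just above the lowest 5% rat. Gsta3 rose by 0.94 ± 0.19 (adjusted p = 0.00522), by 0.71 in run 4 and by 1.17 in run 2, both called. Gsta1 had 12.36, 12.49 and 12.63 in 5% livers and 11.78, 12.12 and 12.37 in 20% livers, and rose by 0.40 ± 0.10 (adjusted p = 0.0224). Its groups overlapped only at their ends. The call of Gsta1 was lost without 1 of 3 rats: animal 51 of the 20% group (adjusted p = 0.0576), animal 52 of the same group (0.0548) or animal 74 of the 5% group (0.0615). It was also lost when only the 2 groups compared entered the fit (0.0590) and with the plate row as a random block (0.0575). The Gsta1 difference was 0.34 to 0.46 with each rat left out, and 0.40 and 0.41 under these other settings. Within run 4 it was 0.29 (adjusted p = 0.213) and within run 2 it was 0.52 (adjusted p = 0.0206).

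Gstm1 had 12.08, 12.28 and 12.46 in 5% livers at 1 week, against 12.78, 12.79 and 12.85 in 20% livers. The 20% rats were almost level and all lay above the 5% rats. It fell by 0.52 ± 0.07 (adjusted p = 1.80e-04), by 0.64 in run 4 and 0.41 in run 2, both called. Gstm2 had 8.98, 10.30 and 11.20 in 5% livers and 11.22, 11.47 and 11.58 in 20% livers, so the groups were separated by a narrow gap. It fell by 1.23 ± 0.27 (adjusted p = 0.0101). Gsta4 had 9.19, 9.67 and 10.22 in 5% livers and 9.77, 10.35 and 10.46 in 20% livers, and its difference of -0.52 ± 0.17 did not pass the test (adjusted p = 0.0797). It passed with array weights (0.0304) and without animal 50 (0.0479) or 54 (0.0261) of the 5% group or animal 52 of the 20% group (0.0467).

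On 5% protein at 1 week Gstm2 was lower in run 4 than in run 2. Gstm2 averaged 9.51 in the 3 rats of run 4 and 10.92 in the 3 of run 2 on this diet, a difference of -1.41 (adjusted p = 0.00635). It was the 1 member called in that contrast, against 0.783% of all genes. On 20% protein the corresponding means were 11.44 and 11.45. The diet difference of Gstm2 was -1.93 in run 4 (adjusted p = 5.00e-05) and -0.52 in run 2 (adjusted p = 0.202). That of Gsta4 was -0.998 in run 4 (adjusted p = 0.00303) and -0.04 in run 2 (adjusted p = 0.952). In run 4, 1 member rose and 3 fell, against 8.49% of all genes called, and in run 2, 3 rose and 1 fell, against 7.57%. The diet effect itself differed between the runs for 3 of the 9 members, against 7.29% of all genes. It was lower in run 4 by 1.41 ± 0.34 for Gstm2 (adjusted p = 0.0134), by 0.96 ± 0.28 for Gsta4 (0.0362) and by 0.80 ± 0.21 for Gss (0.0253). What the runs stand for is not given in the labels, and the part of the run in these differences was not tested further.

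The synthesis genes did not pass the test at 1 week, and Gclc differed by run in the 20% group. It had 11.34, 11.64 and 12.01 in 5% livers, and 11.23, 11.83 and 12.52 in 20% livers, with a difference of -0.21 ± 0.26 (adjusted p = 0.762). The 20% rats fell into 3 rats of run 4 at 11.23 to 11.44 and 3 of run 2 at 12.21 to 12.52, a difference of -1.07 ± 0.24 (adjusted p = 0.00719). The diet difference of Gclc was 0.28 in run 4 and -0.69 in run 2, and neither passed the test. Gsta3 moved the other way in the same 20% rats, with 8.59 in run 4 and 7.69 in run 2 (difference 0.91, adjusted p = 0.00375). These were the 2 members called between runs on 20% protein at 1 week, against 10.8% of all genes.

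Gclm had 10.38, 10.61 and 11.09 in 5% livers at 1 week and 10.41, 10.87 and 11.83 in 20% livers, and differed by -0.43 ± 0.22 (adjusted p = 0.311; 95% interval -0.89 to 0.02). Gss had 9.79, 10.18 and 10.73 in 5% livers and 9.87, 9.97 and 10.52 in 20% livers, a difference of 0.11 ± 0.18 (adjusted p = 0.819). In run 4 the difference was -0.29 (adjusted p = 0.299), and within run 2 Gss rose by 0.52 (adjusted p = 0.0414). Gsr, with 9.64, 9.73 and 9.82 in 5% livers and 9.39, 9.65 and 10.01 in 20% livers, differed by 0.04 ± 0.11 (adjusted p = 0.921).

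At 4 weeks the same count within the runs was 3 rises and 2 falls in run 1, against 15.9% of all genes called, and 2 rises and 2 falls in run 3, against 12.3%. Gsta3, Gstm2, Gsta4, Gsr and Gsta1 passed the test in run 1. In run 3 the 5% arm is 1 rat, so its calls are no separate check of these.

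Over the 4 groups, Gsta3 had its lowest level on 20% protein at 4 weeks, below that on 20% at 1 week, and its higher levels on 5%. Its mean log2 intensity was 9.47 ± 0.12 on 5% at 4 weeks, 9.08 ± 0.31 on 5% at 1 week, 4.89 ± 0.32 on 20% at 4 weeks and 8.14 ± 0.54 on 20% at 1 week (SD, n = 6 each). The 2 groups on 5% did not differ past the threshold (0.39 ± 0.19, adjusted p = 0.241). On the 20% diet Gsta3 fell by 3.25 ± 0.19 at 4 weeks against 1 week (adjusted p = 4.17e-11), with no overlap. The level was 9.55-fold lower at 4 weeks, a fold that is not bounded against so low a level, and with an offset of 16 before the log the difference was -2.71. The diet effect was thus larger at 4 weeks by 3.64 ± 0.27 (adjusted p = 6.70e-09), and the change over time lay mainly in the rats on 20% protein.

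Gss too was lowest on 20% protein at 4 weeks, with means of 10.03 ± 0.13 on 5% at 4 weeks, 10.19 ± 0.34 on 5% at 1 week, 9.15 ± 0.48 on 20% at 4 weeks and 10.07 ± 0.26 on 20% at 1 week. It was lower by 0.92 ± 0.18 at 4 weeks than at 1 week on 20% protein (adjusted p = 0.00420). Its diet effect was larger at 4 weeks by 0.76 ± 0.25, which did not pass the test (adjusted p = 0.0708). It passed with array weights (0.0333) and without animal 49 of the 5% group at 1 week (0.0443). It also passed without animal 29 (0.0419) or 30 (0.0167), the 2 rats on 20% protein in run 1. With the run as a covariate the value was 0.45 (adjusted p = 0.280). Gsta3 and Gss were the 2 members called over time on 20% protein, against 2.52% of all genes.

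The mu transferases moved over time on the 5% diet instead, in opposite directions. Gstm1 was higher by 0.42 ± 0.07 at 4 weeks than at 1 week (adjusted p = 0.00124). Gstm2 was lower by 1.03 ± 0.27 (adjusted p = 0.0213). These were the 2 members called on 5% protein, against 8.29% of all genes. The Gstm2 call was lost without any 1 of animals 23, 49, 50 and 54, with adjusted p of 0.0545 to 0.0598. It was also lost with only the 2 groups compared in the fit (0.0757). Animals 49, 50 and 54 are the 3 rats on 5% in run 2, where Gstm2 averaged 10.92 at 1 week, against 9.51 in run 4. At 4 weeks on 5% it averaged 9.07 in run 1, and the 1 rat of run 3 had 9.78. Means of Gstm1 were 12.70 ± 0.14 on 5% at 4 weeks, 12.28 ± 0.16 on 5% at 1 week, 12.87 ± 0.09 on 20% at 4 weeks and 12.81 ± 0.03 on 20% at 1 week (SD, n = 6 each). Means of Gstm2 were 9.19 ± 0.45 on 5% at 4 weeks, 10.22 ± 0.85 on 5% at 1 week, 11.70 ± 0.33 on 20% at 4 weeks and 11.44 ± 0.14 on 20% at 1 week. For both genes the lowest group was on 5% protein, at 1 week for Gstm1 and at 4 weeks for Gstm2.

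The diet effect of Gstm1 differed between the times by 0.35 ± 0.10 (adjusted p = 0.0448). With Gsta3 this made 2 members of 9 called for diet by time, against 5.75% of all genes. The Gstm1 call was narrow. It was lost without any 1 of 19 of the 24 rats (adjusted p of 0.0502 to 0.0784), with the plate column (0.0589) or the run (0.0777) as a covariate, and with the plate row as a random block (0.0758). The difference itself was 0.31 to 0.40 with each rat left out, and 0.35, 0.36 and 0.34 under these other settings. For Gstm2 the value was -1.28 ± 0.39 (adjusted p = 0.0506). It passed after quantile normalization (0.0436), with every probe set tested (0.0483) and with the lowest 33.3% of genes left out (0.0383). It also passed without animal 29 (0.0282), 59 (0.0421), 75 (0.00986) or 76 (0.0337). With the run as a covariate the Gstm2 value was -1.01 (adjusted p = 0.104), and with an offset of 16 before the log it was -1.26 (0.0597). Of the other 5 members, Gsta1 had 0.03 ± 0.14 (adjusted p = 0.934), Gsr 0.41 ± 0.16 (0.128), Gclc 0.59 ± 0.36 (0.373), Gclm 0.44 ± 0.31 (0.450) and Gsta4 -0.32 ± 0.23 (0.463).

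Among rats of the same group, some members varied together. After the group means were removed, Gclc and Gclm, the 2 subunits of 1 enzyme, had a Pearson r of 0.73 over the 24 arrays, and 0.60 after the means of group and run were removed. Gsta1 and Gsta4 had 0.67 and 0.69. Gstm2 and Gsta4, both lower on 5% protein at 4 weeks, had 0.61 and, with the runs removed, 0.39. Gclm and Gsta1 had -0.64 and -0.63, so that rats with more Gclm tended to have less Gsta1. The pairs named were picked as those with the largest r within groups, in either direction, of all pairs of members. The points share arrays and runs, and these values are descriptions.

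The genes whose pattern within groups was most like that of Gclc were Adarb1 (r = 0.94), Yars1 (0.93) and Dynll1 (0.89), which had 0.85, 0.83 and 0.67 with the runs removed as well. For Gsta1 they were Bloc1s5 (0.87), Cd82 (0.84) and Mink1 (0.83), and for Gstm1 they were Mllt3 (0.71), Nedd4 (0.70) and Megf9 (0.70). All are over the 24 arrays, picked as the highest of 17245 genes.

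Other genes of glutathione supply moved in both directions. Counts in the lists that follow stand against 2308 rises and 2147 falls at 4 weeks, and 321 rises and 420 falls at 1 week, among all 17245 genes (25.8% and 4.3% called). At 4 weeks 4 of 18 measured genes of cysteine and methionine supply rose and 5 fell, with a median of 0.07. Slc7a11, the light chain of the cystine importer, rose by 3.38 ± 0.37, and Slc3a2, its heavy chain, by 1.21. Cbs, the first enzyme of the route from homocysteine to cysteine, fell by 1.87 ± 0.20, and Gnmt, a methyltransferase that uses S-adenosylmethionine, fell by 1.84 ± 0.28. At 1 week 2 rose, Slc7a11 by 2.37 and the methionine synthase Mtr by 0.69, and Cbs alone fell, by 1.22. Slc7a11 had a mean log2 intensity of 4.65 on 20% protein at 1 week, so low that its fold is not bounded. Its groups overlapped at 1 week. Of 11 genes of glutathione breakdown, Chac1, an enzyme that degrades glutathione inside cells, rose by 1.24 at 4 weeks and by 0.86 at 1 week. Chac2 (-0.95) and Cndp2 (-0.39) fell at 4 weeks, and Ggact (-0.54) at 1 week.

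Among the other transferases, 3 of 20 rose and 7 fell at 4 weeks (median -0.05), and 0 rose and 4 fell at 1 week (median -0.26). Gstm7, a further mu transferase, fell by 2.27 ± 0.24 at 4 weeks, and by 1.06 at 1 week. Mgst3, a microsomal transferase, fell by 1.34 at 4 weeks. Gstm5, also of the mu class, rose by 1.18 ± 0.23 and the pi class Gstp1 by 0.75 at 4 weeks, so that the mu class too held both directions. Of 15 glutathione peroxidases, glutaredoxins and glyoxalases, 3 rose and 6 fell at 4 weeks. Gpx1, the main cytosolic peroxidase, fell by 1.01 at 4 weeks and by 0.53 at 1 week, and Gpx2 rose by 1.74 at 4 weeks.

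Of 12 genes listed under transport of glutathione and its conjugates, 4 rose and 4 fell at 4 weeks, and 2 rose at 1 week. The list includes broad carriers, and whether each carries glutathione in these livers was not tested. Abcc3, an exporter of conjugates towards the blood, rose by 3.50 ± 0.20 at 4 weeks and by 0.98 at 1 week, and Abcc4 rose by 1.85 at 4 weeks. Among the falls were Slco2b1 (-1.11) and Abcc6 (-0.94). Of 9 genes of NADPH supply, malic enzyme Me1 alone rose at 4 weeks, by 1.62 ± 0.40, and Nnt at 1 week, by 0.45.

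**Figure D4:**
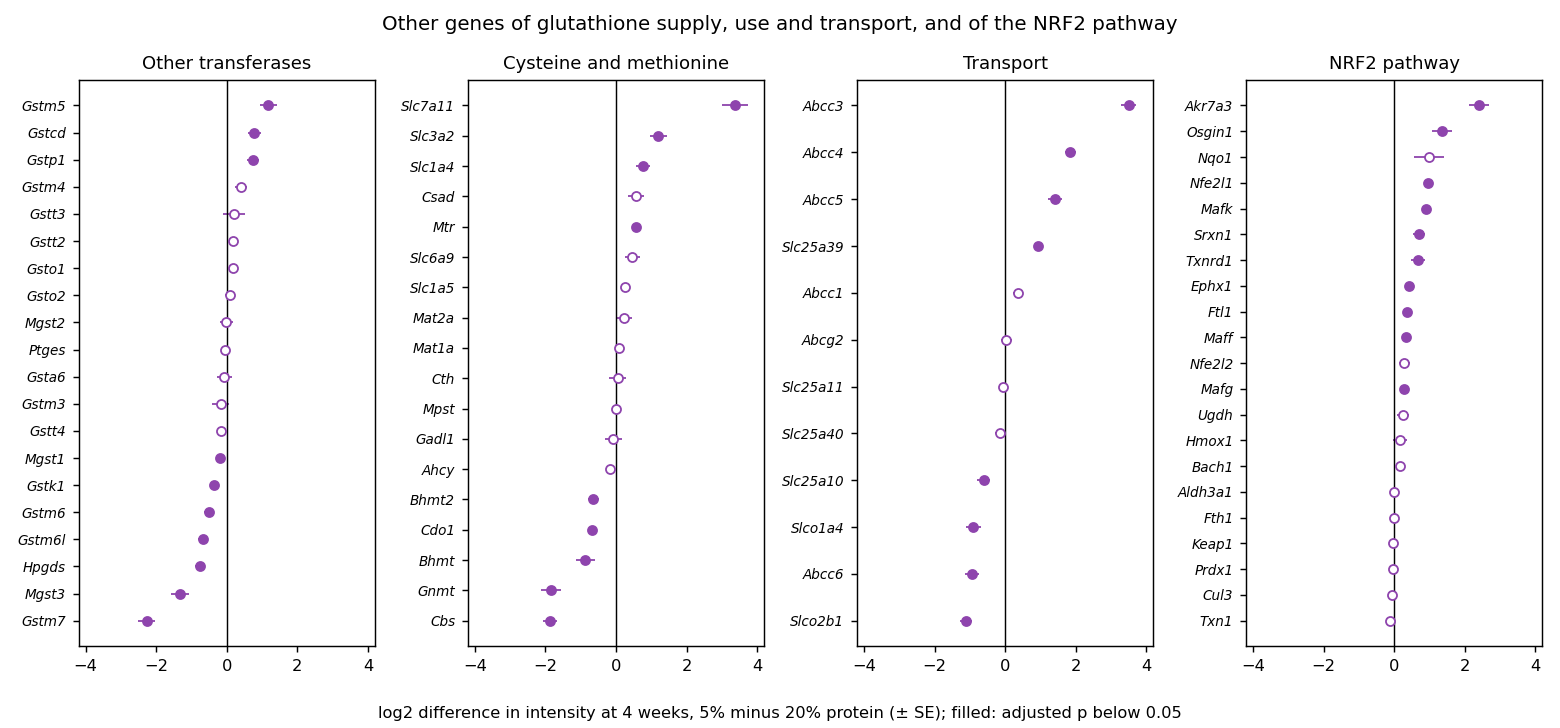
Log2 difference between 5% and 20% protein at 4 weeks (x axis, ± SE, n = 6 rats per group) for every measured gene of the lists named in the panel titles, sorted by size; filled points have an adjusted p below 0.05. In the NRF2 list 10 of 21 genes rose and 0 fell, while the other transferases have 3 rises and 7 falls.

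Of 21 genes of the NRF2 pathway and its other targets, 10 rose and 0 fell at 4 weeks (median 0.29; 25.8% of all genes called in either direction), and 1 rose and 0 fell at 1 week (median 0.01). Akr7a3, the aflatoxin aldehyde reductase, rose by 2.40 ± 0.29, Osgin1 by 1.35 ± 0.29, and Nfe2l1, a factor related to NRF2, by 0.97 ± 0.11 at 4 weeks and by 0.40 at 1 week. For diet by time, 5 of the 21 rose and 0 fell, against 5.75% of all genes called. The list holds regulators such as Keap1 and Bach1 as well as targets, and was chosen with earlier results of these data known. Of 15 nuclear receptors and other factors that act on transferase genes, Atf4, a factor of the amino acid shortage response, rose by 0.76 ± 0.11 at 4 weeks and by 0.51 at 1 week. At 4 weeks 6 of the 15 fell, the xenobiotic receptor Nr1i2 by 0.67, Cebpa by 0.65 and Arnt by 0.65 among them.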

How the data were processed

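Liver RNA of 24 rats was measured on 1 array each. The intensity of each probe set was deposited by the authors after RMA (background correction, quantile normalization and summary over probes) on the unlogged scale, per the labels and the submitters' processing notes, which give no version. Intensities ran from 3.27 to 15793, with no detection call, and for arrays their number limits the precision. Of 29214 probe sets, 962 paired with several symbols and 9608 with none, and these were left out. For genes with several probe sets the one with the highest mean was kept, which gave 17245 genes.

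Log2 intensities were fitted with limma 3.58.1 (lmFit and eBayes) in R 4.3.3 with the data.table package, version 1.17.8, as 4 group means, with 20 residual degrees of freedom. Tests were two-sided, and p-values were adjusted by Benjamini-Hochberg over all genes with a threshold of 0.05. The labels name separate animals, which are the replicates. The runs were fitted from the means of group and run over all 24 arrays. The fit was tested on simulated data. Promoter windows were read and aligned with Biopython 1.88 in Python 3.11.15, and figures were drawn with matplotlib 3.10.9. The alternatives were quantile normalization, median centring, an offset of 16, leaving out the lowest 33.3% of genes, averaging a gene's probe sets, fitting all probe sets, a trended and robust eBayes, array weights, only the groups compared, plate column, plate row, run, each run alone, and each rat left out. The text names, beside the 9 genes, at most 3 rises and 3 falls, the largest called ones, per list and diet comparison, and the 3 genes most like Gclc, Gsta1 and Gstm1; marker genes and the probe sets shared by Gsta2 and Gsta5 were added. The members and lists were chosen with earlier results of these data known.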

Additional observations from a re-analysis of the deposited data

Results flagged for a closer look

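Of 36 sets of 6 values (9 genes in 4 groups), 1 held a rat far from the others. For Gstm2 in the rats on 20% protein for 4 weeks, animal 29 had a log2 intensity of 11.03 and the nearest rat 11.70, a gap of 0.784 of the whole range, above Dixon's critical value of 0.625. By chance about 1 in 20 sets is picked out in this way. The fall of Gstm2 at 4 weeks remained called without this rat.

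The diet effect differed between 4 weeks and 1 week for Gsta3, by 3.64 on the log2 scale, with a diet difference of 4.59 at 4 weeks and 0.94 at 1 week. It differed also for Gstm1, by 0.35, with a diet difference of -0.17 at 4 weeks and -0.52 at 1 week. Both passed the test of the difference itself in limma, but the call of Gstm1 was lost without any 1 of 19 of the 24 rats, with the plate column (adjusted p = 0.0589) or the run (0.0777) as a covariate, and with the plate row as a random block (0.0758).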

How the results depend on the processing

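Of 604 values of the 9 members under other settings, 573 kept their direction and their side of the threshold, 12 lost and 8 gained the call, and 11 changed sign. The changes of sign were all of values that did not pass the test. Gsta1 differed by -0.0085 (quantile normalization) and -9e-04 (plate row as a random block) over time on 5% protein. With array weights it had -0.0086 for diet by time and 0.0375 over time on 20% protein. Gclm at 4 weeks had -0.0653 with the plate row as a random block, -0.0663 with the run as a covariate and -0.2093 in run 1 alone. In run 4 alone at 1 week, Gclc had 0.2784, Gss -0.2865 and Gsr -0.0962, and in run 1 alone at 4 weeks Gclc had -0.2431.

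The number of members called for diet by time was 1 in place of 2 with the plate column or run as a covariate and with the plate row as a random block, and was 1 to 3 with each rat left out. Over time on 5% protein it was 1 with only the groups compared, and 1 to 3 with each rat left out. At 1 week it was 3 to 5 and at 4 weeks 6 with each rat left out. Of 648 such values, 589 kept direction and call, 26 lost and 13 gained it, and 20 changed sign, in 5 results: Gclm at 4 weeks (-0.0859 to 0.1302), Gsr at 1 week (-0.0231 to 0.1012), and Gsta1 for diet by time (-0.0233 to 0.0958), over time on 5% (-0.0247 to 0.0292) and over time on 20% (-0.0933 to 0.0258). Over all genes, calls at 1 week numbered 741, but 336 with the plate row as a block, 1306 in run 2 and 1464 in run 4. At 4 weeks there were 4455, but 2734 in run 1 and 2124 in run 3. For diet by time there were 991, but 1540 with array weights and 486 with the run as a covariate. Over time on 20% protein there were 678 with array weights and 202 with the plate row as a block. No paired analysis was possible because no animal number is shared between groups.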
